A study of Homo sapiens with 18 samples.

Results

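The BET inhibitors i-BET858 and i-BET151 were compared directly with each other after 24 h in OVCAR-3 cells. The comparison used 6 of the 18 RNA-seq libraries, 3 with each drug, chosen by their labels for time and treatment and paired by replicate number. The reference level came from the 3 libraries with DMSO in the same table. OVCAR-3 is an established cell line of high-grade serous ovarian carcinoma, and all groups were grown in 12-well plates and kept in stripped medium. Treated cells received 1 µM i-BET858 or 1 µM i-BET151, and control cells received DMSO. Each drug was thus given at 1 dose, in 1 cell line. The study describes i-BET858 as a bivalent inhibitor of all BET proteins and i-BET151 as an inhibitor of an earlier generation. The question of the comparison was which transcripts respond differently to these drugs.

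BET proteins, BRD2 and BRD3 among them, bind acetylated lysines, mainly on histones, through their bromodomains. Members of the family help to bring the kinase P-TEFb to promoters and enhancers, where this kinase releases paused RNA polymerase II. Inhibitors of this class occupy the acetyl-lysine pocket, so that BET proteins leave chromatin, and HEXIM1, which binds and restrains P-TEFb, is widely used as a transcript that rises on treatment.

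The 24 h libraries held 27534213 to 46299994 counts on genes. Levels are given as CPM, the counts of a gene relative to the library's total after scaling with TMM factors. Relative to the totals without these factors, 3 counts, the limit that a count of 0 allows, came to 0.0648 to 0.109 CPM. All 10 markers of ovarian carcinoma cells checked (PAX8, WT1, MUC16 and EPCAM among them) had counts in each library. Of 12 markers of other cell types, 5 to 8 were at 0 in each. The sum of the rest (23.4 to 44.4 CPM, also without the TMM factors) came mostly from COL1A1. The replicate 3 libraries had a count for 17817 to 18987 genes and the others for 23807 to 24947, so the total and the counts of most lists are also given without replicate 3. The replicates are biological according to the study, but nothing says how the cultures were separated.

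After 24 h, 749 of the 17157 genes tested (4.37%) differed between the drugs at an adjusted p under 0.05. Transcript levels were higher with i-BET858 for 317 genes (1.85%) and lower for 432 (2.52%). Most differences were small. The median log2 difference was 0.46 (1.38-fold) for the higher genes and −0.55 (1.46-fold) for the lower genes, against −0.01 for all genes tested. A difference of at least 1.5-fold was found for 286 genes (1.67% of those tested), 99 higher and 187 lower, and of at least 2-fold for 61 genes (0.356%), 22 higher and 39 lower. All 749 genes differed in the same direction in 3 of 3 pairs, and for 645 of them the 3 libraries of one drug did not overlap those of the other, which held for 19.2% of all genes tested. The genes were called by a test paired on the same libraries, so these counts describe them and are no separate evidence. Of the 749 genes, 719 were protein coding and 19 were long non-coding RNAs.

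**Figure D1:**
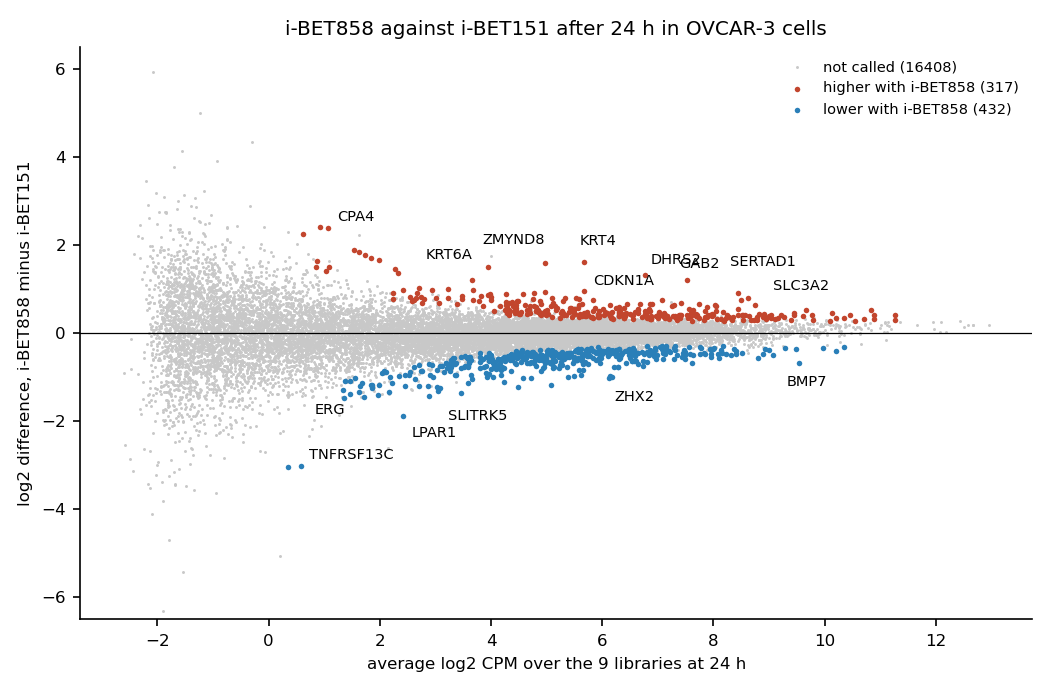
Log2 difference of i-BET858 minus i-BET151 at 24 h (vertical axis) against the average log2 CPM over the 9 libraries (horizontal axis), 1 point per gene tested. Coloured points are the 317 genes called higher and the 432 called lower with i-BET858, and most of them lie within 1 log2 unit of 0.

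The number of genes called depended on the pairing. Without the replicate block, 36 genes were called (16 higher and 20 lower), all of them among the 749. The correlations between libraries set replicate 3 apart but do not tell replicates 1 and 2 from each other. Without the replicate 3 libraries, 741 genes were called (397 higher and 344 lower), of which 518 were among the 749. Leaving out 1 library or 1 replicate number gave 58 genes (without i-BET858 replicate 3) to 1404 (without DMSO replicate 3). With libraries scaled to their totals instead of by TMM, 231 genes were higher and 673 lower, so the higher genes made up 25.6% of the calls and not 42.3%. In bulk RNA, a change in the share of cells that express a gene and a change of its RNA per cell cannot be told apart.

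The DMSO libraries show on which side of the untreated level these differences lay. For 250 of the 317 higher genes, the mean DMSO level was below both drugs, that is, i-BET858 was farther from DMSO than i-BET151 on the upper side. For 376 of the 432 lower genes the DMSO level was above both drugs. DMSO lay between the drugs for 30 of the higher and 45 of the lower genes. The remaining 37 higher genes had a DMSO level above both drugs and the remaining 11 lower genes a level below both. Over all genes tested, DMSO was below both drugs in 44%, between them in 11.6% and above both in 44.4%. These means share the drug libraries with the comparison, so the positions describe it and are no separate evidence.

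The first group of transcripts had a DMSO level that i-BET858 came close to or passed and i-BET151 did not. Where 3 levels are given for a group, they are CPM of replicates 1, 2 and 3 in that order. Means are given ± SD (n = 3). ZMYND8 (chromosome 20, 47209214 to 47356889 in GRCh38), a chromatin reader of acetylated histones, stood at 40, 40.4 and 28.4 with DMSO, at 12.3, 14.8 and 15.5 with i-BET151 and at 51.9, 43.5 and 35.2 with i-BET858. The i-BET858 libraries were all above the i-BET151 libraries and overlapped DMSO, and the log2 difference between the drugs was 1.6 (95% confidence interval 1.27 to 1.93, adjusted p = 5.23e-04). GAB2 (chromosome 11, 78215293 to 78418348), a scaffold protein that links receptor tyrosine kinases to PI3K and ERK signalling, had 206, 249.7 and 171 CPM with DMSO, 84.5, 103 and 129 with i-BET151 and 253, 231 and 237 with i-BET858. Here too the i-BET858 libraries overlapped DMSO and the i-BET151 libraries did not, with a log2 difference between the drugs of 1.2 (0.87 to 1.52, adjusted p = 0.00304). Exons of both genes overlap an antisense gene, and since the strand setting of the counting is not given in the sources used here, a part of their counts could come from it.

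CPA4, a secreted carboxypeptidase, was expressed at a low level. It had 2.46, 1.69 and 2.01 CPM with DMSO, 0.546, 0.675 and 0.718 with i-BET151 and 3.23, 3.67 and 3.33 with i-BET858, which was above DMSO in each library, and its log2 difference of 2.4 (1.68 to 3.11, adjusted p = 0.00364) was the largest among the higher genes with a symbol and an average log2 CPM of at least 1. ABCA4, a lipid transporter known from the retina, followed the same order, with means of 3.48 ± 0.406 CPM with DMSO, 1.45 ± 0.82 with i-BET151 and 4.81 ± 0.714 with i-BET858 (log2 difference 1.78, adjusted p = 0.0158). CHAC1, which degrades glutathione, had 16.1, 19.1 and 17.6 CPM with DMSO, 12.6, 9.33 and 8.1 with i-BET151 and 14.3, 19.7 and 20.6 with i-BET858 (log2 difference 0.85, adjusted p = 0.0243), so that i-BET858 and DMSO overlapped.

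Some transcripts had mean levels below DMSO with both drugs but less so with i-BET858. KRT4, a keratin of stratified squamous epithelia on chromosome 12, 52806549 to 52814116, had 56.9, 55.5 and 135 CPM with DMSO, 13, 11 and 28.4 with i-BET151 and 38.3, 38.4 and 80.7 with i-BET858. Replicate 3 was the highest in each group, the ratio of the drugs was similar in each pair, and the log2 difference of 1.62 (1.41 to 1.83) had the smallest adjusted p of all genes (1.21e-05). ANKRD1, a target of the YAP pathway, had mean levels of 18.5 ± 3.47 CPM with DMSO, 5.58 ± 1.27 with i-BET151 and 13.6 ± 6.06 with i-BET858 (log2 difference 1.21, adjusted p = 0.0114). Its i-BET858 library of replicate 2 (20.6 CPM) lay within the DMSO range, and i-BET858 against DMSO missed the threshold (−0.50, adjusted p = 0.0588 by edgeR). KRT17 (44.4 ± 4.57, 13.4 ± 1.36 and 23.1 ± 3.45 CPM with DMSO, i-BET151 and i-BET858) and the kallikrein protease KLK6 (25.6 ± 6.42, 5.94 ± 0.81 and 10.6 ± 1.37 CPM in that order) followed the same pattern, with log2 differences of 0.78 and 0.84 and adjusted p of 0.0109 and 0.0089.

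A larger group was above DMSO with both drugs and more so with i-BET858. DHRS2, a mitochondrial short-chain dehydrogenase (chromosome 14, 23630115 to 23645639), stood at 11, 10 and 10.7 CPM with DMSO, 92, 85.4 and 91.6 with i-BET151 and 202, 229.5 and 244 with i-BET858. The groups were far apart and the replicates close together, with a log2 difference between the drugs of 1.33 (1.14 to 1.52, adjusted p = 2.23e-05). KRT6A, a keratin of activated epithelia, had 5.63, 6.37 and 10.4 CPM with DMSO, 8.59, 8.87 and 12.6 with i-BET151 and 23, 27.1 and 35.1 with i-BET858. Its i-BET151 libraries overlapped DMSO and its i-BET858 libraries did not (log2 difference between the drugs 1.5, 1.24 to 1.77, adjusted p = 1.59e-04). SERTAD1, a regulator of CDK4 and E2F, had 93.1, 96.4 and 112 CPM with DMSO, 333, 309 and 348 with i-BET151 and 560.1, 642 and 646 with i-BET858, without overlap (log2 difference 0.9, 0.73 to 1.07, adjusted p = 2.66e-04).

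**Figure D2:**
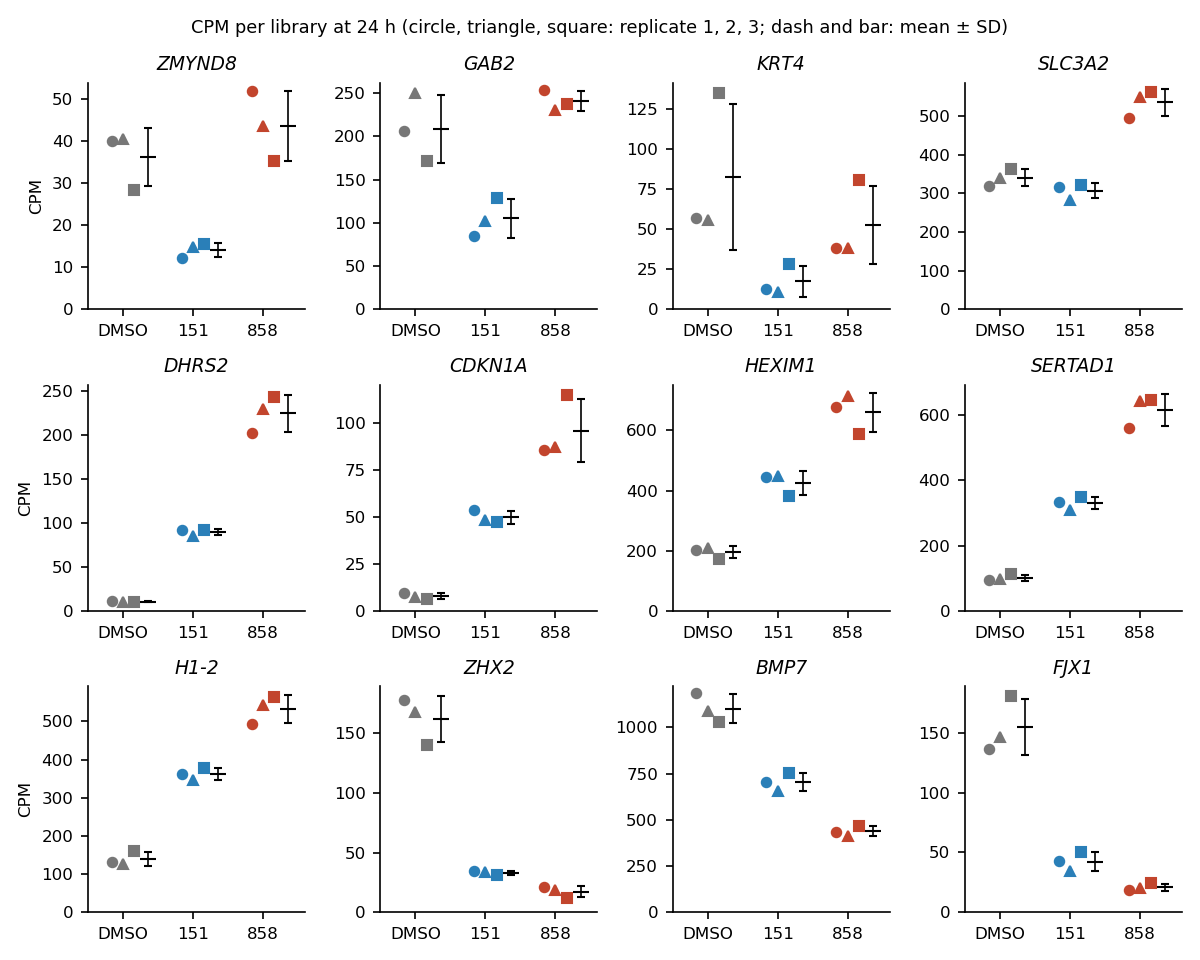
CPM (vertical axis, from 0) of 12 transcripts in each 24 h library with DMSO, i-BET151 and i-BET858, with the mean and SD of 3 replicates beside the points. i-BET858 lies apart from i-BET151 in each panel, near DMSO for ZMYND8 and GAB2, farther from DMSO than i-BET151 for DHRS2, CDKN1A, HEXIM1, SERTAD1 and H1-2, and lowest for ZHX2, BMP7 and FJX1.

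Of the 22 tested genes of a list of BET inhibitor response genes, 5 were higher with i-BET858 (ZMYND8, HEXIM1, CDKN2B, SERPINI1 and CDKN1A), 1 was lower (WNT5A), or 27.3% in all against 4.37% of all genes, and the median log2 difference was 0.16. Without the replicate block 3 were higher and none was lower, and leaving out 1 library or 1 replicate number gave 5 to 9 called (5 higher and 1 lower without replicate 3). HEXIM1 stood at 203, 210.3 and 174 CPM with DMSO, 446, 449 and 381 with i-BET151 and 679, 714 and 589 with i-BET858, in 3 separate ranges (log2 difference between the drugs 0.64, 0.49 to 0.78, adjusted p = 8.65e-04). SERPINI1, the serine protease inhibitor neuroserpin, rose from a mean of 1.67 ± 0.197 CPM with DMSO to 15.9 ± 3.92 with i-BET151 and 29.1 ± 6.28 with i-BET858 (log2 difference between the drugs 0.88, adjusted p = 0.00425). WNT5A, a WNT ligand, had means of 62.6 ± 15.1 CPM with DMSO, 14.9 ± 4.73 with i-BET151 and 10.6 ± 3.22 with i-BET858 (log2 difference −0.49, adjusted p = 0.0194), although the drug libraries overlapped.

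Among 20 tested CDK inhibitors and G1 cyclins, the higher genes were all CDK inhibitors: CDKN1A (p21), CDKN2B (p15), CDKN1C (p57) and CDKN2D (p19). CDKN1A had 9.55, 7.58 and 6.46 CPM with DMSO, 53.4, 48.3 and 47.2 with i-BET151 and 85.4, 87 and 115 with i-BET858 (log2 difference between the drugs 0.95, 0.65 to 1.25, adjusted p = 0.00436). CDKN1C had 13.5, 14.1 and 17.8 CPM with DMSO, 25.7, 24.6 and 19.3 with i-BET151 and 46, 48.5 and 35.8 with i-BET858 (log2 difference 0.9, adjusted p = 0.00771). All 3 i-BET858 libraries were above all i-BET151 libraries for both genes. The lower members were E2F2 (−0.81), a transcription factor of S phase entry, CDK6 (−0.45), a G1 kinase, and RBL2 (−0.55), the pocket protein p130, with adjusted p of 0.0173, 0.0203 and 0.0238. Of this list 35% was called, against 4.37% of all genes, with a median of −0.11. The lower calls were lost without the replicate block (2 higher genes were left) and without replicate 3 of i-BET858 or of i-BET151 (3 higher each), and fell to 1 without i-BET858 replicate 1 or 2, i-BET151 replicate 2, or replicate 1 or 2 of all groups. Without replicate 3 of all groups 5 were higher and 2 lower, but CDK6 and RBL2 were not among them (adjusted p = 0.072 and 0.052 by edgeR). HEXIM1 and CDKN1A overlap antisense genes (HEXIM2-AS1 and DINOL).

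Members of the mitotic, DNA replication and repair programmes were called at 3.45 to 8.16%, against 4.37% of all genes. Of 58 G2/M and mitosis genes, CDC20, an activator of the anaphase-promoting complex, was higher (0.43, adjusted p = 0.0288), KIF14, a kinesin of cytokinesis, was lower (−0.43, adjusted p = 0.0455), and the median was 0.02. Of 49 DNA replication genes, 4 were lower (8.16%, against 2.52% of all genes) and none higher, among them POLE2 (−0.76), a subunit of DNA polymerase epsilon, UHRF1 (−0.53), which maintains DNA methylation, and TIPIN (−0.6), a replication fork protein. The adjusted p of these genes ranged from 0.0162 to 0.038, and the median of the list was −0.09. Of 49 genes of double-strand break repair, NBN (−0.48, adjusted p = 0.0123), which senses breaks within the MRN complex, and RAD51AP1 (−0.48, adjusted p = 0.0227), which acts in homologous recombination, were lower, with a median of −0.13. Of 39 apoptosis genes, BCL2L1 (BCL-XL, anti-apoptotic) was higher by 0.36 (adjusted p = 0.0173) and BID (pro-apoptotic) lower (−0.56, adjusted p = 0.00812), and the median was 0.10. Without the replicate block no gene of these 4 lists was called by edgeR (9, 10, 7 and 9 genes at an unadjusted p under 0.05). No replication or repair gene was called without any one i-BET858 library or without replicate 1 or 2 of all groups (8 to 14 and 5 to 13 genes at an unadjusted p under 0.05), and no replication gene without i-BET151 replicate 3 (11) or repair gene without i-BET151 replicate 2 (8). The mitosis calls were lost without any one i-BET858 library, i-BET151 replicate 2 or 3, or replicate 2 of all groups (6 to 11), and the apoptosis calls without i-BET858 replicate 1 or 3, or replicate 1 or 2 of all groups (8 to 12). Without replicate 3 of all groups the higher and lower counts were 3 and none for mitosis, none and 4 for replication, 1 and 1 for repair and 2 and 1 for apoptosis.

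Replication-dependent histone genes had the highest median of the 35 lists. Of 46 tested, 8 were higher with i-BET858 and none was lower (17.4% against 1.85% of all genes), with a median log2 difference of 0.41. The 8 were H3C8, H1-2, H2AC8, H2BC5, H2BC11, H4C8, H2BC4 and H2AC11. Without replicate 3 the count was 9 higher, without replicate 1 it was 6, without replicate 2 it was 5, without i-BET858 replicate 1 or 3 it was 3 or 2, without i-BET151 replicate 3 it was 4, and without the replicate block it was 1 (H3C8). H3C8, a core histone H3 gene, had 4.36, 4.31 and 4.05 CPM with DMSO, 24.1, 24.5 and 20.8 with i-BET151 and 37.9, 39.9 and 37.6 with i-BET858 (log2 difference between the drugs 0.74, 0.52 to 0.95, adjusted p = 0.00364). H1-2, a linker histone, had 132, 128 and 162, then 362, 347 and 379, then 492, 544 and 564 CPM in the same order of groups (log2 difference 0.56, 0.39 to 0.72, adjusted p = 0.00396). The 3 groups did not overlap for either gene, and DMSO was the lowest. H2AC8 had 7.78, 7.89 and 5.69, then 34.8, 34.8 and 25.6, then 51, 50.9 and 48 CPM (log2 difference 0.67, adjusted p = 0.00626). H2BC5 had 35.1, 29.4 and 25.4, then 113, 128 and 82.6, then 203, 157 and 149.7 CPM (log2 difference 0.66, adjusted p = 0.00771). These mRNAs mostly end in a stem-loop and not in a poly-A tail, and the libraries were enriched for poly-A RNA. Whether the drugs differ in the amount of histone mRNA or in the share of it that carries a tail was not tested.

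Because these genes differed together, the 250 bases before the start of the 4 histone genes with the smallest p are shown (RefSeq, GRCh38.p14, each read 5′ to 3′ on the strand of its gene). Capitals mark CCAAT on either strand (CCAAT or ATTGG), the letters of a box common in histone promoters. H3C8 lies at chr6:26271414-26271663 (minus strand), H2BC5 at chr6:26157871-26158120 (plus), H2AC8 at chr6:26216671-26216920 (plus) and H1-2 at chr6:26056471-26056720 (minus).
H3C8: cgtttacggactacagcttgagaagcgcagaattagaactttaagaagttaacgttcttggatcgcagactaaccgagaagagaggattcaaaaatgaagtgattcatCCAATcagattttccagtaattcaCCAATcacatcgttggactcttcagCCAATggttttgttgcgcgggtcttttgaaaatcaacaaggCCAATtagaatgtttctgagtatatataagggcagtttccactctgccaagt
H2BC5: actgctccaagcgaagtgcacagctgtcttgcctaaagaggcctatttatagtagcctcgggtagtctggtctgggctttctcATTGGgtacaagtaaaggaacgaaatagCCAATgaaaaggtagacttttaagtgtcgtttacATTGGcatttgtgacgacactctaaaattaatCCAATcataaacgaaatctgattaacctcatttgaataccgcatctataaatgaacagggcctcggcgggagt
H2AC8: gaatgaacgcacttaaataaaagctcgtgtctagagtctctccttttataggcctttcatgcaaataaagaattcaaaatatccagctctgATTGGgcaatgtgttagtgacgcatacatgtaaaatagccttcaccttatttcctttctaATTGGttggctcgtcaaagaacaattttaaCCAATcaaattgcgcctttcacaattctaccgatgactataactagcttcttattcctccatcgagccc
H1-2: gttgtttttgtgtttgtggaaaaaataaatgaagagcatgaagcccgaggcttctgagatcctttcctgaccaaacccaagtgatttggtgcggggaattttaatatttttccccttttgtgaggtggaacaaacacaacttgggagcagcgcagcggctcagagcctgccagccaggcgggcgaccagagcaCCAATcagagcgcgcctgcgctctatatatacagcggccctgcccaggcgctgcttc
The windows hold 4, 4, 3 and 1 matches. The match nearest to the start begins 52 bases before it in H3C8, 73 in H2BC5, 69 in H2AC8 and 57 in H1-2. Matches were common to the family and not particular to the members called: 38 of 46 windows of tested histone genes (82.6%) held one, as did 8 of 9 windows of those called, against 32.7% of the 17284 windows of all genes tested. A match describes the letters only and is not a measurement of binding.

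The stress response genes that were called were mostly higher with i-BET858. Of 39 tested heat shock and NRF2 target genes, 7 were higher with i-BET858 and 1 was lower (20.5% called, against 4.37% of all genes), with a median of 0.13. The higher genes were NQO1, OSGIN1, PRDX1, ME1, FTL, GCLC and BAG3, 6 of them known for antioxidant or iron handling roles and BAG3 as a co-chaperone, and the lower one was the mitochondrial chaperonin HSPE1 (−0.52, adjusted p = 0.0451). NQO1, a quinone reductase, had 101, 111 and 137 CPM with DMSO, 127, 145 and 145 with i-BET151 and 196, 207 and 247 with i-BET858 (log2 difference between the drugs 0.64, 0.46 to 0.81, adjusted p = 0.00304). The i-BET858 libraries were above all DMSO libraries, whereas the range of i-BET151 overlapped DMSO and each of its libraries was above the DMSO library of the same number (log2 difference 0.26, adjusted p = 0.0182 by edgeR). OSGIN1, an oxidative stress-induced growth inhibitor, had means of 6.54 ± 1.17 CPM with DMSO, 10.6 ± 3.4 with i-BET151 and 20.8 ± 4.18 with i-BET858 (log2 difference 0.98, adjusted p = 0.00436). NQO1 overlaps an antisense gene and OSGIN1 shares exon positions with MLYCD. Without replicate 2, 1 gene of this list was called, without any one i-BET858 library or i-BET151 replicate 2 or 3 there were 2, without the replicate block none (10 genes at an unadjusted p under 0.05), and without replicate 3 there were 9 higher and none lower.

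SLC3A2, the heavy chain of several amino acid transporters, was among the genes with the smallest p. Its level was 319, 339 and 363 CPM with DMSO, 317, 284 and 321 with i-BET151 and 495, 550.2 and 562 with i-BET858, so that i-BET151 overlapped DMSO and i-BET858 was above both (log2 difference between the drugs 0.8, 0.63 to 0.97, adjusted p = 5.23e-04). Of 45 tested genes of the unfolded protein and ATF4 stress responses, 6 were higher (SLC3A2, PPP1R15A, CHAC1, ALDH1L2, ATF3 and SESN2) and 2 lower (VLDLR and XBP1), or 17.8% called against 4.37% of all genes, with a median of 0.10. PPP1R15A (GADD34), which restores translation after stress, had means of 30.6 ± 4.18 CPM with DMSO, 44.6 ± 2.85 with i-BET151 and 66.9 ± 7.83 with i-BET858 (log2 difference 0.57, adjusted p = 0.0152). XBP1, a transcription factor of the unfolded protein response, had means of 332 ± 55.6 CPM with DMSO, 110.2 ± 7.06 with i-BET151 and 80.4 ± 0.985 with i-BET858 (log2 difference −0.45, adjusted p = 0.0158). Without replicate 2 or without the replicate block, 1 gene of the list was called, as without i-BET858 replicate 3, and without replicate 3 of all groups there were 4 higher and 2 lower. CHAC1 and ALDH1L2 were not called in that last fit (adjusted p = 0.0798 and 0.0521 by edgeR). They passed in 6 and 1 of the 12 fits that left out 1 library or 1 replicate number.

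Of 65 tested genes of autophagy and the lysosome, 7 were higher (SQSTM1, MAP1LC3B, NEU1, CTSL, ATP6V0D1, GLA and ATG2A) and none was lower (10.8%, against 1.85% of all genes on the higher side), with a median of 0.16. SQSTM1 (p62), a cargo receptor of autophagy, had 189, 186 and 248 CPM with DMSO, 218, 212 and 250 with i-BET151 and 334, 337 and 380.1 with i-BET858. The i-BET858 libraries were above all others (log2 difference between the drugs 0.63, 0.47 to 0.79, adjusted p = 0.00247). MAP1LC3B, the LC3 protein of autophagosome membranes, had 41.1, 40.2 and 43.5 CPM with DMSO, 108, 107 and 98.2 with i-BET151 and 146, 159.5 and 152 with i-BET858 (log2 difference 0.55, adjusted p = 0.00515). The lysosomal enzymes NEU1 (sialidase) and CTSL (cathepsin L) were higher by 0.5 and 0.48 (adjusted p = 0.00546 and 0.00949). Exons of SQSTM1 overlap MGAT4B and MRNIP, and those of MAP1LC3B overlap FBXO31, on the opposite strand. Without replicate 2 or without the replicate block, 1 gene of the list was called, as without i-BET858 replicate 3, and without replicate 3 of all groups there were 10.

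Of 45 tested AP-1 and immediate early genes, 6 were higher (JUND, ZFP36, DUSP1, JUNB, ATF3 and KLF4) and none was lower (13.3%, against 1.85% of all genes on the higher side), with a median of 0.12. JUND, an AP-1 subunit, had means of 110.1 ± 20.8 CPM with DMSO, 198 ± 39.1 with i-BET151 and 276 ± 35.9 with i-BET858 (log2 difference 0.48, adjusted p = 0.00865). JUNB, another subunit, had means of 32.2 ± 6.25 CPM with DMSO, 21.6 ± 2.36 with i-BET151 and 30.4 ± 2.31 with i-BET858 (log2 difference 0.49, adjusted p = 0.0326). Without replicate 2 and without the replicate block no gene of the list was called by edgeR (14 genes at an unadjusted p under 0.05 in each fit), nor without i-BET858 replicate 1 or 3 (22 and 13), and without replicate 3 of all groups there were 9.

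Turning to the lower genes, members of the TGFβ and BMP pathway differed in both directions. Of 39 tested, 4 were lower with i-BET858 (BMP7, SMAD3, INHBB and BMPR1B) and 3 higher (ID4, ID2 and ID1), or 17.9% in all against 4.37% of all genes, with a median of 0.05. The lower members are 2 ligands or ligand subunits, a receptor and a signal transducer, and the higher ones are inhibitors of basic helix-loop-helix transcription factors that respond to BMP. BMP7 (chromosome 20, 57168753 to 57266641), a BMP ligand and one of the more abundant transcripts here, had 1185, 1086 and 1029 CPM with DMSO, 706, 654 and 755 with i-BET151 and 436, 413 and 466 with i-BET858. Each group lay apart, with i-BET858 the lowest (log2 difference between the drugs −0.68, −0.85 to −0.52, adjusted p = 0.00158). SMAD3, which carries the signal of TGFβ and activin receptors to the nucleus, had 80.6, 88.7 and 73.6 CPM with DMSO, 40.7, 40.6 and 53.5 with i-BET151 and 23.1, 24.3 and 27.7 with i-BET858, in the same order (log2 difference −0.84, −1.1 to −0.58, adjusted p = 0.00411). ID4, ID2 and ID1 were higher by 0.68, 0.62 and 0.53 (adjusted p = 0.0107, 0.0329 and 0.0406 by edgeR, and 0.0577 for ID2 by DESeq2), with mean levels for ID1 of 512 ± 45.1 CPM with DMSO, 778 ± 119 with i-BET151 and 1128 ± 193 with i-BET858. Across the alternative fits, their differences ran from 0.58 to 0.86, from 0.34 to 0.87 and from 0.28 to 0.76. In pairs 1, 2 and 3 the log2 difference was 0.17, 1.19 and 0.52 for ID2 and 0.09, 1.03 and 0.48 for ID1. The higher calls were lost without the replicate block (2 lower genes were left), without replicate 2 of all groups (2 lower), without any one i-BET858 library (1 to 4 lower) and without i-BET151 replicate 2 or 3 (2 lower each). Without replicate 3 of all groups the counts were 4 lower and 3 higher, but ID2 and ID1 were not among them (adjusted p = 0.058 and 0.0783 by edgeR). With libraries scaled to their totals the median was −0.01.

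The genes with the smallest p on the lower side were FJX1, BOC, LRFN1, BMP7, ZHX2 and NPR3. FJX1, the human homologue of the fly gene four-jointed, had 137, 147 and 181 CPM with DMSO, 42.6, 34.1 and 50 with i-BET151 and 18.6, 20.3 and 24.2 with i-BET858 (log2 difference between the drugs −1.01, −1.22 to −0.79, adjusted p = 7.35e-04). ZHX2, a zinc finger and homeobox protein, had 177, 168 and 140.3 CPM with DMSO, 34.5, 34 and 31.5 with i-BET151 and 21.6, 18.4 and 12.1 with i-BET858 (log2 difference −0.97, adjusted p = 0.00282). Both drugs were far below DMSO for these genes, and i-BET858 was the lower in each pair. BOC, a co-receptor of hedgehog signalling, had 71.4, 69.8 and 144 CPM with DMSO, 25.2, 24.8 and 55.4 with i-BET151 and 13.9, 14.2 and 24.2 with i-BET858 (log2 difference −0.95, adjusted p = 8.65e-04). LRFN1, a synaptic adhesion protein, had 89.3, 85.1 and 126 CPM with DMSO, 14.5, 12.6 and 23.3 with i-BET151 and 6.69, 7.06 and 11.2 with i-BET858 (log2 difference −1.01, adjusted p = 8.65e-04). NPR3, the clearance receptor of natriuretic peptides, had 105, 116 and 206 CPM with DMSO, 31.6, 40 and 63.9 with i-BET151 and 19.9, 14.4 and 32.2 with i-BET858 (log2 difference −1.03, adjusted p = 0.00282). For NPR3 the i-BET858 library of replicate 3 was above the lowest i-BET151 library, so the drug groups overlapped although each pair differed.

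Larger log2 differences belonged to genes of low level. LPAR1, a receptor for lysophosphatidic acid, had 8.78, 8.82 and 13.2 CPM with DMSO, 2.73, 3.19 and 8.13 with i-BET151 and 1.24, 1.15 and 1 with i-BET858 (log2 difference between the drugs −1.88, −2.55 to −1.21, adjusted p = 0.00744). Its i-BET151 library of replicate 3 was close to DMSO and the others of that drug were not. SLITRK5, a synaptic membrane protein, had 26.1, 22.1 and 28.8 CPM with DMSO, 4.35, 4.94 and 6.91 with i-BET151 and 2.35, 1.71 and 2.15 with i-BET858 (log2 difference −1.36, −1.74 to −0.98, adjusted p = 0.00304). ERG, an ETS transcription factor, had 6.07, 7.17 and 7.7 CPM with DMSO, 1.59, 1.96 and 3.11 with i-BET151 and 0.567, 0.757 and 1.09 with i-BET858 (log2 difference −1.46, adjusted p = 0.0115). The other genes chosen for the size of their fall were PIGZ, GAREM2, CYS1, NLGN4X, DISC1, MLPH, NOS1, SYTL4 and FAM81A, with log2 differences of −1.48 to −1.25 and mean levels with i-BET858 of 0.593 to 3.93 CPM. Without replicate 3 of all groups, their differences were −1.22 (NLGN4X) to −0.79 (GAREM2). PIGZ, MLPH and NOS1 then missed the threshold (adjusted p = 0.06, 0.0555 and 0.0543 by edgeR). On the higher side, the corresponding genes not yet described were HMGA2-AS1, TEX14, DISP3 and CACNA2D2, with log2 differences of 1.03 to 1.85. DESeq2 did not call DISP3 (adjusted p = 0.199), whose difference of 1.45 ran from 0.92 to 1.76 across the alternative fits. The difference of TEX14, 1.7, was 1.19 without replicate 3, whose i-BET151 library stood at 0.508 CPM against 4.32 and 3.13 in the other two. HMGA2-AS1 overlaps exons of HMGA2 on the other strand.

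Among 37 tested genes of IL6-JAK-STAT3 signalling, IFNGR2, a chain of the interferon gamma receptor, was lower and SOCS1, a feedback inhibitor of JAK kinases, was higher (5.41% called, against 4.37% of all genes), with a list median of 0.01. IFNGR2 had 22.8, 25.3 and 32 CPM with DMSO, 11.9, 11.7 and 14 with i-BET151 and 6.15, 6.87 and 5.66 with i-BET858, without overlap (log2 difference between the drugs −1, −1.31 to −0.68, adjusted p = 0.00436). SOCS1 had 3.05, 2.55 and 5.22 CPM with DMSO, 5.81, 4.54 and 9.27 with i-BET151 and 10.2, 11.7 and 15.5 with i-BET858 (log2 difference 0.97, adjusted p = 0.0107). Of 44 interferon-stimulated genes, IRF7 (0.63) and ISG15 (0.55) were higher (4.55%, against 1.85% of all genes on the higher side), with a list median of −0.06. Of 23 MHC class I genes, HLA-E (0.6), B2M (0.41) and HLA-C (0.35) were higher (13%, against 1.85% of all genes), with a median of 0.02, and reads of HLA genes can be shared between similar copies. Of 26 NF-kB targets and chemokines, TNFAIP2 was higher (0.39), RELB was lower (−0.77), 7.69% of the list in all, and the median was 0.06. Without the replicate block, no interferon-stimulated, MHC class I or NF-kB gene was called by edgeR (8, 7 and 4 at an unadjusted p under 0.05), and of the IL6-JAK-STAT3 list 1 lower gene was left. The MHC class I calls were also lost without replicate 2 or 3 of i-BET858 or of i-BET151 and without replicate 2 of all groups (6 or 7 genes at an unadjusted p under 0.05), the interferon-stimulated calls without i-BET858 replicate 2 or 3, i-BET151 replicate 2, or replicate 2 of all groups (9 to 13), and the NF-kB calls without any one i-BET858 library, i-BET151 replicate 1, or replicate 1 or 2 of all groups (4 to 8). Without replicate 3 of all groups, the higher and lower counts were 1 and 1 for IL6-JAK-STAT3, 3 and 2 for interferon-stimulated, 2 and 1 for MHC class I and 1 and none for NF-kB genes. HLA-E then missed the threshold (log2 difference 0.41, adjusted p = 0.0559 by edgeR).

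**Figure D3:**
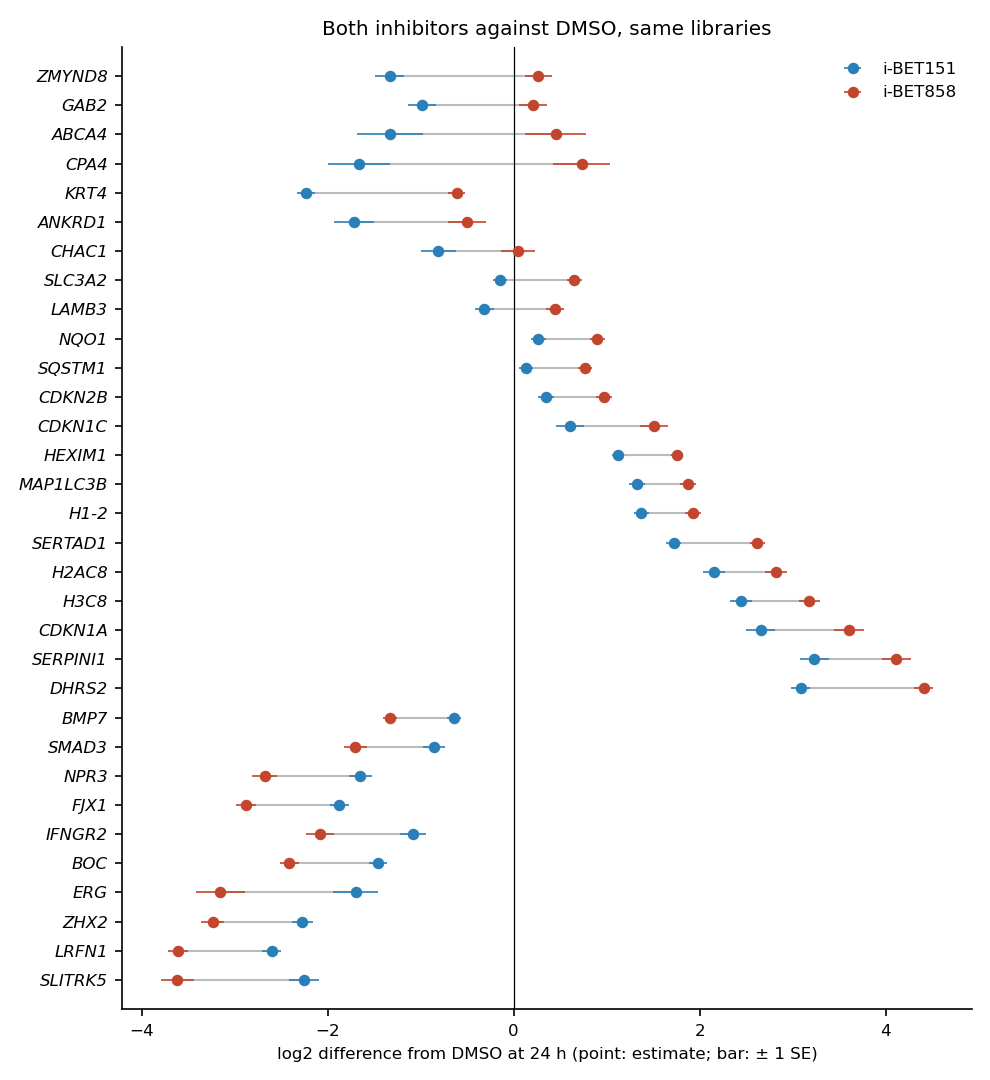
Log2 difference of each drug from DMSO at 24 h (horizontal axis) with ± 1 SE for transcripts named in the text (vertical axis), both fitted on the same 9 libraries. The i-BET858 points lie to the right of the i-BET151 points for the upper genes (ZMYND8 0.27 and −1.33, DHRS2 4.41 and 3.09) and to the left for the lower genes (ZHX2 −3.24 and −2.27).

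Splicing and RNA-binding proteins of the hnRNP family were among the abundant transcripts that were lower. Of 56 tested splicing factors, HNRNPDL, HNRNPA3, HNRNPA2B1 and HNRNPD were lower, with log2 differences of −0.56, −0.56, −0.4 and −0.39 (adjusted p = 0.00364, 0.00522, 0.0109 and 0.0197), HNRNPAB was higher (0.3, adjusted p = 0.0368), 8.93% were called against 4.37% of all genes, and the median was −0.10. HNRNPA3 had 593, 580.2 and 381 CPM with DMSO, 589, 551 and 324 with i-BET151 and 393, 412 and 201 with i-BET858. Replicate 3 was the lowest in each group, so the drug groups overlapped although i-BET858 was lower in each pair. Exons of HNRNPA3 overlap NFE2L2 on the opposite strand, and those of HNRNPA2B1 overlap CBX3 and NFE2L3. With libraries scaled to their totals 8 splicing factors were lower, none was called by edgeR without the replicate block (6 at an unadjusted p under 0.05) or without i-BET858 replicate 3 (12), and without replicate 3 of all groups there were 3 lower and 3 higher.

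Epithelial and serous lineage genes differed one by one. Of 52 tested genes of epithelial junctions and keratins, 6 were higher (KRT17, CLDN4, KRT19, KRT23, KRT80 and JUP) and 1 lower (KRT18), or 13.5% called against 4.37% of all genes, with a median of 0.00. KRT18, a keratin of simple epithelia, had 1682, 1584 and 1511 CPM with DMSO, 808, 794 and 739.8 with i-BET151 and 642, 638 and 581 with i-BET858 (log2 difference between the drugs −0.33, adjusted p = 0.0135), and overlaps KRT8 on the opposite strand. Of 25 serous ovarian lineage genes, KLK6 and MSLN (mesothelin, 0.34, adjusted p = 0.0406) were higher and the transcription factor WT1 was lower (12% called), with a median of 0.23. WT1 had 156, 151 and 153 CPM with DMSO, 175, 171 and 185 with i-BET151 and 146, 139 and 149.5 with i-BET858, so that i-BET151 was above DMSO and i-BET858 below it (log2 difference −0.29, adjusted p = 0.0413). Of 53 extracellular matrix and integrin genes, LAMB3 (0.76) and TIMP2 (0.33) were higher and ITGB4 (−0.49), LAMB1 (−0.45) and ITGB5 (−0.35) lower (9.43% called), with a median of −0.03. LAMB3, a chain of laminin 332, had means of 54 ± 4.38 CPM with DMSO, 43.8 ± 7.71 with i-BET151 and 73.4 ± 6.34 with i-BET858 (adjusted p = 0.00304). None of 11 tested EMT regulators and mesenchymal genes was called by edgeR (1 at an unadjusted p under 0.05, 1 called by DESeq2), with a median of 0.23. Without the replicate block, none of the epithelial, serous or matrix genes was called by edgeR (11, 8 and 10 at an unadjusted p under 0.05). The 6 higher epithelial calls were lost without i-BET858 replicate 2 or 3, i-BET151 replicate 2, or replicate 2 of all groups, with 1 lower gene left in the first of these fits and none in the others (9 to 18 at an unadjusted p under 0.05). All serous calls were lost without i-BET858 replicate 3, i-BET151 replicate 2, or replicate 2 of all groups (9 to 13), and 1 matrix gene, higher, was left without replicate 3 of i-BET858 or i-BET151. Without replicate 3 of all groups, the higher and lower counts were 7 and 1, 2 and 1, and 3 and none. WT1 was not called in that fit (adjusted p = 0.0729 by edgeR). Of the 12 fits that left out 1 library or 1 replicate number, WT1 passed in 1 and MSLN in 2.

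Of 49 WNT and Notch genes, WNT11 (0.81), NRARP (0.65) and NOTCH1 (0.36) were higher and DKK3 (−0.61), TCF7L1 (−0.59), NOTCH3 (−0.49) and WNT5A lower (14.3% called, against 4.37% of all genes), with a median of −0.03. WNT11, a WNT ligand, had 26.4, 28.2 and 23.9 CPM with DMSO, 29.7, 30 and 23 with i-BET151 and 41.6, 56.2 and 47 with i-BET858, so that i-BET151 overlapped DMSO and i-BET858 was above it (adjusted p = 0.00366). Of 38 growth factors and their receptors, IRS2 (0.47), an adaptor of the insulin receptor, was higher and the ligands BTC (−0.66) and PDGFC (−0.54) lower (7.89% called), with a median of −0.07. Of 51 neuronal and synaptic genes, CHGA (0.73), SYT11 (0.53) and INA (0.51) were higher and SHANK2 (−0.89) lower (7.84% called), with a median of −0.10. CHGA, chromogranin A of secretory granules, had 2.55, 2.58 and 2.28 CPM with DMSO, 14.8, 14.5 and 14.2 with i-BET151 and 23.9, 25.6 and 22.8 with i-BET858. Of 30 ABC transporters, 2 were higher, ABCA4 among them, and none was lower (6.67%, against 1.85% of all genes on the higher side), with a median of 0.07. Without the replicate block, none of the genes of these 4 lists was called by edgeR (11, 7, 11 and 8 at an unadjusted p under 0.05). The 4 lower WNT and Notch calls were lost without i-BET858 replicate 3, i-BET151 replicate 2 or 3, or replicate 2 of all groups, which left 1 to 3 higher. Without replicate 3 of all groups, the differences of TCF7L1 and NOTCH3 were −0.37 and −0.31 (adjusted p = 0.131 and 0.0729 by edgeR). No growth factor or neuronal gene was called without i-BET858 replicate 3 (9 and 10), and no ABC transporter without any one i-BET858 library, i-BET151 replicate 2, or replicate 2 of all groups (4 to 10). The lower growth factor calls were also lost without replicate 2 of i-BET858, of i-BET151 or of all groups, and without i-BET151 replicate 3, which left 1 higher. SHANK2 passed in 2 of the 12 fits that left out 1 library or 1 replicate number. Without replicate 3 of all groups, the higher and lower counts were 4 and 2, 3 and 2, 4 and 1, and 4 and 1.

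Metabolic and housekeeping lists were called at 1.35 to 6.56%, against 4.37% of all genes. Of 49 genes of cholesterol and fatty acid synthesis, TM7SF2 (0.33) and FDFT1 (0.38) of the sterol pathway were higher and ELOVL6 (−0.54), a fatty acid elongase, lower, with a median of 0.12. Of 35 hypoxia and glycolysis genes, HK2 (−0.67, adjusted p = 0.0152), a hexokinase, and PDK1 (−0.74, adjusted p = 0.0152), which restrains pyruvate dehydrogenase, were lower, with a median of −0.04. Of 77 cytosolic ribosomal protein genes, 71 had a positive difference, against 8400 of all 17157 genes tested, and the median was 0.15. Processed pseudogenes share sequence with these genes. RPS9 (0.53) and RPL10 (0.33) were called higher and RPL22 (−0.41) lower. This count moved more than the others here: 17 were higher and none lower without i-BET151 replicate 1, 14 and 1 without DMSO replicate 3, 15 and 1 without the filter on low counts, and 12 and 1 by DESeq2, whereas none was called by edgeR without the replicate block (4 at an unadjusted p under 0.05), without any one i-BET858 library (7 to 23) or without i-BET151 replicate 3 (10). Of 74 nuclear genes of oxidative phosphorylation, ATP5MC1 (−0.45) was lower, with a median of −0.04. Of 90 chromatin regulators, SIRT1 (0.52), a deacetylase, was higher and PHF10 (−0.63), SETDB1 (−0.46), SMARCC2 (−0.45) and NSD2 (−0.44) were lower, with a median of −0.07. Of 61 genes of RNA polymerase II elongation and Mediator, ELL2 (0.36) and MED29 (0.33) were higher and MED24 (−0.53) and SSRP1 (−0.37) lower, with a median of 0.04. No gene of the sterol, hypoxia, oxidative phosphorylation, chromatin and polymerase II lists was called by edgeR without the block (10, 4, 2, 13 and 9 at an unadjusted p under 0.05) or without i-BET858 replicate 3 (15, 9, 1, 13 and 8). The hypoxia calls were also lost without i-BET858 replicate 2, i-BET151 replicate 2 or 3, and replicate 2 or 3 of all groups (6 to 10). The sterol calls were lost too without i-BET858 replicate 1 or 2, i-BET151 replicate 2, and replicate 1 or 2 of all groups (11 to 16). No oxidative phosphorylation gene was called without i-BET858 replicate 1, any single i-BET151 library or any single replicate number (1 to 9). No polymerase II gene was called without replicate 1 of i-BET858 or of all groups (9 and 11).

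No gene was called by edgeR among 64 ribosome biogenesis genes (6 at an unadjusted p under 0.05, 1 called by DESeq2, median −0.03), 13 genes of the mitochondrial genome (2 at an unadjusted p under 0.05, none by DESeq2, median 0.03), 23 HOX genes (3 and none, median 0.13) and 8 tested markers of other cell types (none at either, median 0.13).

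**Figure D4:**
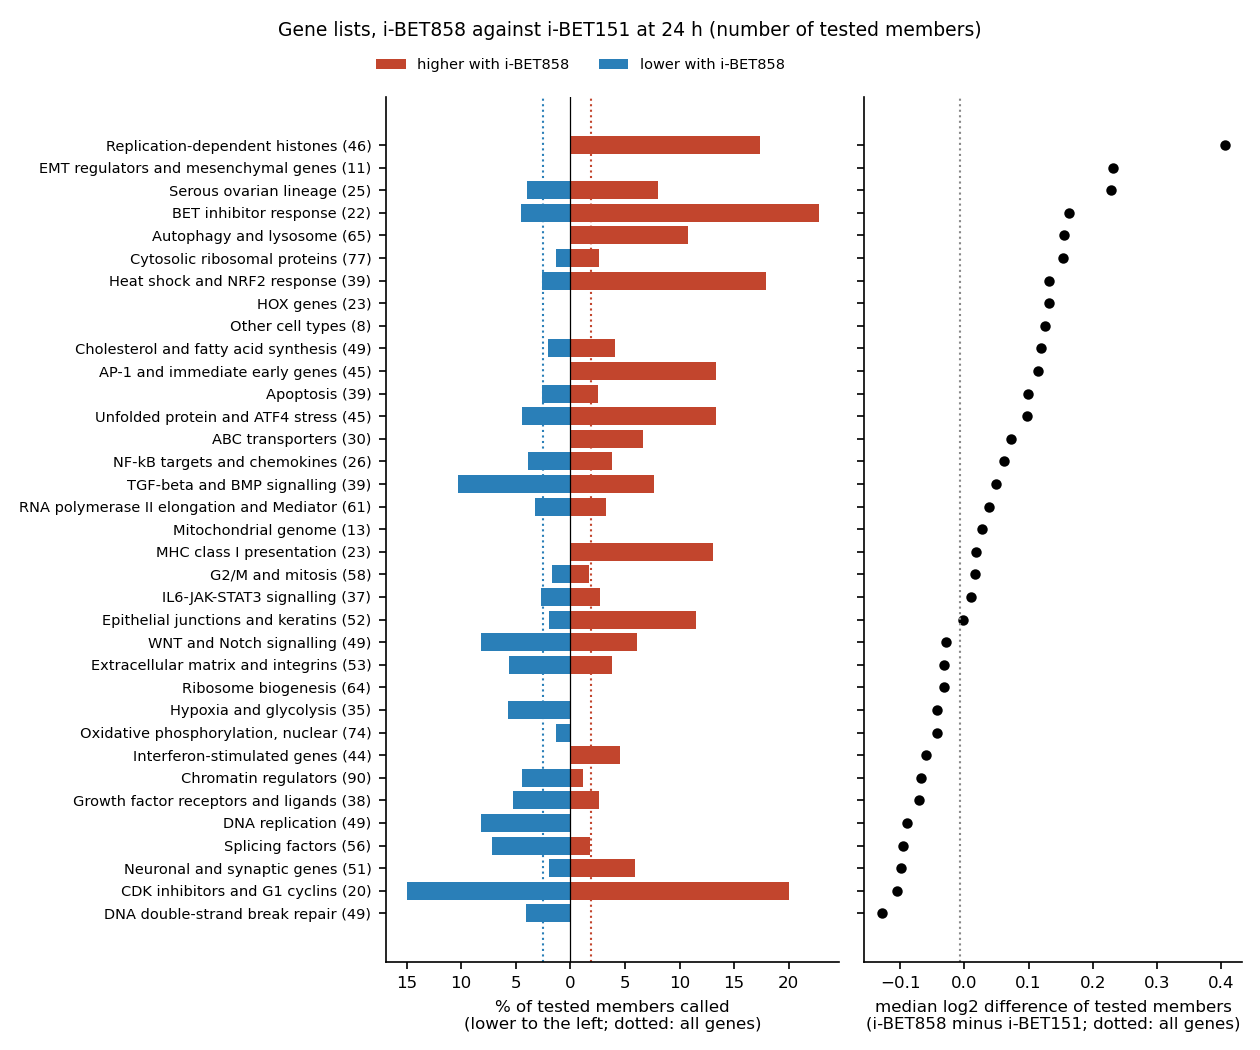
Left, percent of the tested members of each of 35 gene lists called higher (to the right) or lower (to the left) with i-BET858 at 24 h, with dotted lines at the 1.85% and 2.52% of all genes. Right, the median log2 difference of the tested members, which is highest for the replication-dependent histones (0.41).

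The BET genes BRD2 and BRD3 did not pass the test of edgeR, although DESeq2 called BRD2 (adjusted p = 0.0258). BRD2 had 149.6, 168 and 104 CPM with DMSO, 228, 224 and 211 with i-BET151 and 256, 302 and 287 with i-BET858, a log2 difference between the drugs of 0.35 (0.09 to 0.6, adjusted p = 0.128). BRD3 had a difference of 0.07 (−0.15 to 0.29, adjusted p = 0.76). MAP3K3, a kinase that acts upstream of MAPK cascades, had a difference of 0.27 (0.09 to 0.45, adjusted p = 0.094 by edgeR and 0.0235 by DESeq2). The ligand NRG1 had −0.47 (−1 to 0.06, adjusted p = 0.334), and the cytokine LIF had −0.68 (−1.55 to 0.19, adjusted p = 0.402). MYC stood at 17.6, 17.6 and 25.8 CPM with i-BET151 and 15.5, 14.1 and 19.7 with i-BET858, against 23.7, 24 and 39.4 with DMSO, with a difference between the drugs of −0.3 (−0.53 to −0.06, adjusted p = 0.16). MYCN was near the limit of detection with both drugs (means of 0.365 and 0.171 CPM), and its interval ran from −2.34 to 0.31 (adjusted p = 0.415). CCR1 did not pass the filter on low counts. These intervals include differences as large as those of called genes, so equal levels with both drugs are not shown.

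The libraries of 4 h, which share none with those of 24 h, show which of these differences were present early. At 4 h, 1655 of 17192 genes tested differed between the drugs (9.63%). Of the 317 genes higher at 24 h, 291 were higher with i-BET858 at 4 h as well (91.8%, 95% Wilson interval 88.3 to 94.3%), 161 of them at an adjusted p under 0.05 (4.38% of all genes tested at 4 h), and their median log2 difference at 4 h was 0.36. Of the 432 lower genes, 214 were lower at 4 h (49.5%, 44.8 to 54.2%), 31 of them at an adjusted p under 0.05 (5.25% of all genes), with a median of 0.00. Over all 16570 genes tested at both times, 52.5% were higher at 4 h. The intervals treat genes as independent, which they are not. With libraries scaled to their totals, the shares were 86.6% of the higher and 70.6% of the lower genes.

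SERTAD1, CDKN1A, CDKN1C, HEXIM1, CDKN2B and SERPINI1 differed at 4 h by 0.88, 1, 0.93, 0.61, 0.96 and 0.96 on the log2 scale (adjusted p = 1.71e-05, 2.87e-04, 0.0017, 3.40e-04, 2.09e-04 and 0.0109). Genes with large differences at 24 h and small ones at 4 h were KRT4 (0.27 at 4 h, adjusted p = 0.101), ZMYND8 (0.26, 0.342), DHRS2 (0.21, 0.479) and GAB2 (0.08, 0.714). The change of the difference from 4 to 24 h passed the test for these 4 genes (1.37, 1.36, 1.14 and 1.14). On the lower side it did so for ZHX2 (0.27 at 4 h, change −1.21), BOC (−0.02, −0.91), NPR3 (−0.07, −0.94), SMAD3 (−0.03, −0.79) and BMP7 (−0.05, −0.61). FJX1 was already lower at 4 h (−0.53, adjusted p = 0.00196). In all, the change passed the test for 216 of the 749 genes, against 4.21% of all genes tested for it (17.2% at an unadjusted p under 0.05), but the 749 were chosen for their difference at 24 h, and the change contains that choice.

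A few genes differed in opposite directions at the 2 times. Of the 749 genes, 9 had an adjusted p under 0.05 at 4 h in the other direction. BCL2L1 was lower with i-BET858 at 4 h (−0.33, adjusted p = 0.0482) and higher at 24 h (0.36). DYRK1B, a kinase linked to quiescence, had −0.55 at 4 h (adjusted p = 0.00181) and 0.31 at 24 h (adjusted p = 0.0257). MYC, which missed the threshold at 24 h (−0.3), was higher with i-BET858 at 4 h (0.52, adjusted p = 0.0227).

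**Figure D5:**
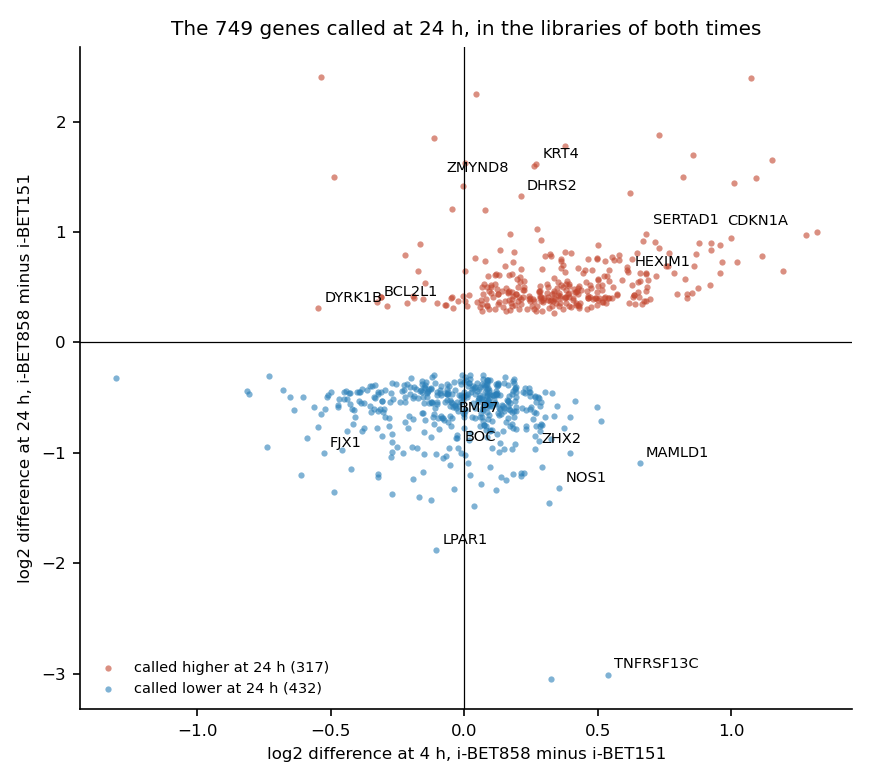
Log2 difference of i-BET858 minus i-BET151 at 24 h (vertical axis) against that at 4 h (horizontal axis) for the 749 genes called at 24 h, 1 point per gene. The 317 higher genes lie mostly to the right of 0 (291 of them) and the 432 lower genes on both sides of it (214 to the left).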

How the data were processed

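OVCAR-3 cells gave 3 poly-A libraries for each group. The deposited values are raw counts per gene, which the authors made by aligning paired reads to GRCh38 with STAR and counting them with its gene count mode; the annotation release and strand setting are not given in the sources used here. Of 58825 genes, 58472 (99.4%) matched GENCODE 44, which gave symbols and positions. The quasi-likelihood test of edgeR 4.0.16 (R 4.3.3, TMM scaling, genes of low counts removed by filterByExpr) was run on the 9 libraries of 24 h with group and replicate number as terms, and genes with a Benjamini-Hochberg adjusted p under 0.05 were called. The change between times was a drug-by-time interaction over 18 libraries. After group means were taken out, libraries of the same number had correlations across genes of 0.161 to 0.352 (9 pairs) and those of other numbers −0.329 to 0.326 (18 pairs, median −0.247). Since each same-numbered pair was above 0.1, the numbers, which the labels give, were taken to pair the libraries. Replicates 1 and 2 correlated with each other across numbers as well (0.202 to 0.326), and i-BET858 replicate 2 more with i-BET151 replicate 1 (0.326) than with replicate 2 (0.161), so at 24 h the correlations set replicate 3 apart but do not tell 1 from 2. Intervals on shares are 95% Wilson intervals.

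The 35 gene lists and all members were chosen with earlier results of these data known. Genes were named by a rule: the 12 largest differences in each direction among genes whose log2 CPM averaged 1 or more and whose 3 pairs had 1 direction, the 6 smallest p in each direction, up to 4 called members per list and direction, 13 genes of the study or the drug class, and the 3 genes most opposite at 4 h; some genes that meet it are not reported here. Alternatives were no block, DESeq2 1.42.0, its size factors, total library size, other filters, only the drug libraries, fold thresholds, and each library or replicate number left out. The shares at 4 h, the DMSO positions and the list counts under these alternatives were added after seeing the data. The tests were tried on simulated data first.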

Additional observations from a re-analysis of the deposited data

Results flagged for a closer look

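For 46 of the named genes reported here, the difference between i-BET858 and i-BET151 itself changed between 4 and 24 h (drug-by-time interaction by edgeR with the replicate block, adjusted p under 0.05), given below as the log2 difference at 24 h minus that at 4 h. All but MYC had been chosen for their difference at 24 h, and DYRK1B, MAMLD1 and TNFRSF13C also for an opposite one at 4 h, so the changes contain that choice, and without the replicate block 26 genes in all passed this test instead of 765.

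The change was towards i-BET858 for ABCA4 (1.42), KRT4 (1.37), ZMYND8 (1.36), ANKRD1 (1.28), DHRS2 (1.14), GAB2 (1.14), DYRK1B (0.88), BCL2L1 (0.71) and SLC3A2 (0.5). Of the genes higher at 24 h, ZFP36 (−0.41) and NRARP (−0.52) had a larger difference at 4 h.

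Among genes lower at 24 h, the change was below −1 for PDK1 (−1.01), HK2 (−1.04), SHANK2 (−1.15), ZHX2 (−1.21), FAM81A (−1.39), DISC1 (−1.43), NOS1 (−1.65), MAMLD1 (−1.73), ERG (−1.75), LPAR1 (−1.76) and TNFRSF13C (−3.53). TNFRSF13C, the BAFF receptor of B cells, was expressed at a low level, with 0.497, 0.338 and 3.59 CPM with i-BET151 and 0.131, 0.0561 and 0.206 with i-BET858 at 24 h, and its difference of −3.01 (adjusted p = 0.0163) moved to −2.1 (adjusted p = 0.0927) without the i-BET151 library of replicate 3, which stood far above the other drug libraries. MAMLD1, a Notch co-activator, had 0.66 at 4 h and −1.1 at 24 h.

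Signalling and surface proteins with smaller changes were FJX1 (−0.45), ITGB5 (−0.51), BMP7 (−0.61), LAMB1 (−0.67), DKK3 (−0.72), ITGB4 (−0.73), BTC (−0.73), LRFN1 (−0.75), SMAD3 (−0.79), BOC (−0.91), NPR3 (−0.94) and IFNGR2 (−0.96). The other genes were HNRNPA2B1 (−0.46), KRT18 (−0.5), XBP1 (−0.51), RPL22 (−0.58), MED24 (−0.6), PHF10 (−0.61), HNRNPA3 (−0.62), BID (−0.62), HNRNPDL (−0.63), ATP5MC1 (−0.65) and UHRF1 (−0.69). MYC changed by −0.79, from a higher level with i-BET858 at 4 h.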

How the results depend on the processing

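The count of 749 called genes (317 higher, 432 lower) moved most with the replicate block, without which it was 36 (16 and 20) at 24 h, 167 instead of 1655 at 4 h and 26 instead of 765 for the change between times. It was 1383 (693 and 690) with DESeq2, 1348 (686 and 662) without the filter on low counts, and 904 (231 and 673) with total library size. The stricter fold thresholds gave, by construction, 286 (99 and 187) at 1.5-fold and 61 (22 and 39) at 2-fold. Leaving out 1 library or 1 replicate number gave 58 to 1404 genes (31 to 691 higher, 27 to 713 lower): 58 without i-BET858 replicate 3, 192 and 246 without its replicates 1 and 2, 200 and 223 without i-BET151 replicates 2 and 3, 1404 without DMSO replicate 3, and 306 and 121 without replicates 1 and 2 of all groups. The cause was not tested, although fewer libraries enter these fits. The higher genes also higher at 4 h made up 100% (16 of 16) without the block, 85.3% with DESeq2, 86.6% with total library size and 90.4 to 95.5% without 1 replicate number, and the lower genes also lower made up 70%, 48%, 70.6% and 43.9 to 51.2%. Of the 142 named genes called, 25 stayed past the threshold in all 12 leave-outs, among them KRT4, ZMYND8, DHRS2, GAB2, SLC3A2, HEXIM1, H3C8, NQO1, SQSTM1, BMP7, ZHX2, FJX1 and LRFN1, while 127 fell short of it without the block, HEXIM1, KRT4, NQO1 and SQSTM1 included. The sign turned for BRD3, not called, to −0.0142, −0.0319 and −0.051 without replicate 1 of i-BET858, of i-BET151 or of all groups (−0.051 to 0.202 without 1 replicate number), and for LIF, not called, to 0.0601 without replicate 3 (−1.17 to 0.0601). Depth limits genes below 1 CPM, such as TNFRSF13C with i-BET858 and MYCN, where few counts stand behind a level.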

Other observations

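Genes in these paragraphs were chosen after their values were seen. They are single genes and stand for no group. H2AJ, a histone H2A variant outside the replication-dependent list, had 37, 34.2 and 41.6 CPM with DMSO, 128, 116 and 123 with i-BET151 and 177, 189 and 219 with i-BET858 (log2 difference between the drugs 0.67, adjusted p = 0.00304 by edgeR). H1-10 (0.45) and the H3.3 genes H3-3B (0.42) and H3-3A (0.31) were higher too. MACROH2A2, a macroH2A variant, was lower, with means of 102 ± 1.51 CPM with DMSO, 33.4 ± 5.67 with i-BET151 and 23.3 ± 1.75 with i-BET858 (log2 difference −0.51, adjusted p = 0.0237).

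PCK2, a mitochondrial enzyme of gluconeogenesis and serine synthesis from glutamine, had 34.3, 38.3 and 52.9 CPM with DMSO, 28.1, 23.3 and 34.4 with i-BET151 and 40.2, 44 and 59.1 with i-BET858 (log2 difference 0.73, adjusted p = 0.00411). The amino acid transporters SLC7A8 and SLC1A5 had means of 7.19 ± 1.85, 4.01 ± 0.115 and 7.8 ± 2.42 CPM and of 172 ± 30.4, 132 ± 9.19 and 170.5 ± 20.1 CPM with DMSO, i-BET151 and i-BET858 (log2 differences 0.92 and 0.36, adjusted p = 0.0246 and 0.0467). SLPI, a secreted protease inhibitor, also had its lowest mean with i-BET151, with 226 ± 30.5, 138 ± 3.35 and 204 ± 18.8 CPM with DMSO, i-BET151 and i-BET858 (log2 difference 0.55, adjusted p = 0.00546). The reverse, with i-BET151 above DMSO and i-BET858 nearer to DMSO, was seen for UGDH, which makes UDP-glucuronate, with 167, 157 and 117 CPM with DMSO, 246, 267 and 193 with i-BET151 and 173, 163 and 129 with i-BET858 (log2 difference −0.6, adjusted p = 0.00304), and for RFLNB, a filamin-binding protein, with means of 9.46 ± 0.265, 19.1 ± 1.43 and 9.27 ± 1.7 CPM with DMSO, i-BET151 and i-BET858 (log2 difference −1.05, adjusted p = 0.00411).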
